A study of Schizosaccharomyces pombe 972h- with 4 samples.

Results

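The hexose transporter genes described here are ght1 (SPCC548.07c), ght4 (SPBC1683.08), ght5 (SPCC1235.14) and ght8 (SPCC548.06c) of S. pombe. They were found by systematic name in the descriptions of the study's gene tables and make up 4 of the 4997 targets on the array. The RefSeq gene table holds 8 genes with a ght symbol. Of the other members, ght6 (SPCC1235.13) could be placed on the array by name and is given for comparison, while ght2, ght3 and ght7 were not analysed here. The study asked whether loss of Ofd2, a dioxygenase that acts on histone H2A, alters the response of transcripts to low oxygen. The 4 groups were wt in normal oxygen (20%), Ofd2Δ in normal oxygen, wt in hypoxia (below 1%) and Ofd2Δ in hypoxia, each held under its condition for 90 min. All were exponential cultures at 30 °C in rich YES medium with 2% glucose. RNA of 2 experiments was pooled for each group and hybridised to 1 array, and 1 deletion strain stood for the loss of Ofd2. No named target stands for the deleted gene, and the deletion was not checked on the arrays. With 1 array in each group there is no replicate error and no test was made. The 2 blocks of an array repeat the same probes, and the spread over blocks and spots given below is technical. Changes are in the pool of extracted RNA of a whole culture, in which fewer cells that carry a transcript and less of it per cell cannot be told apart.

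Hexose transporters are membrane proteins of the major facilitator superfamily that carry sugars into the cell. Import of glucose is the entry step of glycolysis, on which fission yeast relies for ATP when respiration is limited by oxygen. Ght5 is known as a high-affinity glucose transporter needed for growth when glucose is scarce, and its transcription is held down by the repressor Scr1 in ample glucose. Ght1 also carries glucose and Ght6 is known to prefer fructose, whereas ght4 and ght8 encode relatives that are less studied.

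The Ofd2Δ hypoxia array differed from the other arrays. Its median gene spot was 4009, against 6597 to 7529 on the others, and the 75th percentile of its gene spots was 6894, against 13583 to 15092. It was scanned separately, so strain in hypoxia and scan cannot be told apart. The SD of the log2 hypoxia ratio over the spots of a target was 0.16 at the median in wt and 0.37 in Ofd2Δ, and it was larger in Ofd2Δ for 4859 of the 4997 targets. Levels from the probe files correlated with the deposited table of normalised values at r = 0.998 or above over 1694 targets for 3 arrays, and at r = 0.983 for the Ofd2Δ hypoxia array (across genes, which are not independent replicates). All spots of the 4 genes lay above the 95th percentile of the random control probes on every array, and none reached 65000.

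In wt, ght5 was induced at least 2-fold in hypoxia, ght1 and ght4 were raised by less than 2-fold, and ght8 was near its level in normal oxygen. In Ofd2Δ, ght1, ght4 and ght5 were all at least 2-fold higher in hypoxia, and ght8 was lower by less than 1.5-fold, which is not a call. These calls apply the study's threshold of 2-fold to the mean of the 2 block ratios. In wt 1 of the 4 genes passed for a rise, where 0.160% of all targets did, and in Ofd2Δ 3 of 4, where 0.440% did. At 1.5-fold, 3 of the 4 genes were higher in each strain, against 0.820% of all targets in wt and 3.28% in Ofd2Δ. For a fall, 0 of the 4 genes passed at either limit, against 0.640% of all targets at 2-fold and 2.28% at 1.5-fold in wt, and 1.00% and 2.88% in Ofd2Δ. Over the 4 genes the median of the ratios was 1.80 for wt and 2.61 for Ofd2Δ, where all targets had 1.02 in both strains. All these values are from the probe files. In the deposited table of normalised values, 2 of the 4 genes, ght1 and ght5, passed 2-fold for a rise in each strain. There 25 of all targets passed in wt and 25 in Ofd2Δ, so the count of the 4 genes did not differ between strains. The genes were picked with earlier results of these arrays known, so these shares describe them and do not test them.

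**Figure D1:**
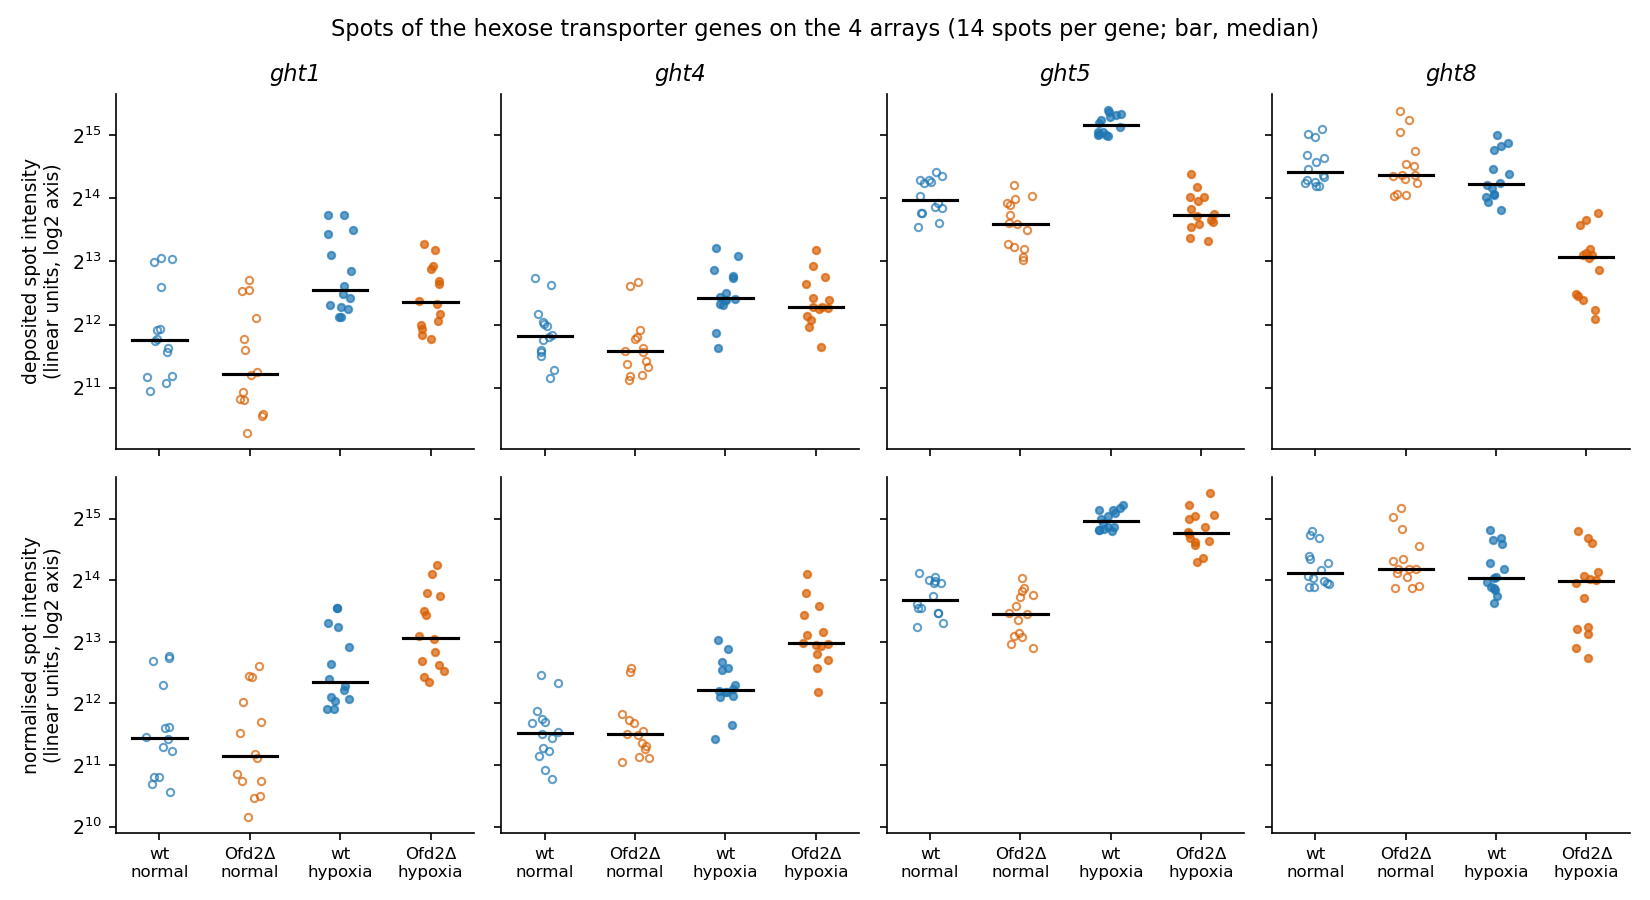
Intensity of the 14 spots of each gene on the 4 arrays, as deposited (upper row) and after background correction and quantile normalisation (lower row), on log2 axes; open points are normal oxygen, filled points hypoxia, blue wt and orange Ofd2Δ, and bars are medians. The deposited median of ght5 was 36615 in wt hypoxia and 13641 in Ofd2Δ hypoxia, and after normalisation both hypoxia arrays lie above both arrays of normal oxygen.

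The 14 spots of ght5 had deposited intensities of 11933 to 21855 with a median of 16163 for wt in normal oxygen, and of 32636 to 43438 with a median of 36615 in wt in hypoxia. The 2 ranges do not overlap. All probes of ght5 lie within 108 bases, and the share of all targets with such separate ranges was not computed. In Ofd2Δ the intensities ran from 8325 to 18928 with a median of 12401 in normal oxygen. In hypoxia they ran from 10285 to 21437 with a median of 13641, and these 2 ranges do overlap. Without any correction, the median spot of ght5 in hypoxia was 2.27 times that in normal oxygen for wt and 1.10 times for Ofd2Δ, while the same ratio for the median of all targets was 0.941 and 0.590. The rank of ght5 among all targets of an array does not depend on the brightness of the array. It moved from percentile 78.5 to 97.5 in wt and from 72.9 to 96.2 in Ofd2Δ.

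After normalisation the level of ght5 in normal oxygen was 12789 for wt and 10917 for Ofd2Δ, and in hypoxia 29479 for wt and 26282 for Ofd2Δ. Levels are normalised intensities on a linear scale, the geometric mean of both blocks. The hypoxia ratio was 2.31 in wt (2.26 and 2.36 in the 2 blocks) and 2.41 in Ofd2Δ (2.46 and 2.36). On the log2 scale this is 1.21 ± 0.20 (SD over 14 spots) in wt and 1.27 ± 0.57 in Ofd2Δ. All 14 spots rose at least 2-fold in wt, and in Ofd2Δ 14 rose and 10 did so by 2-fold. Among 4997 targets the ratio of ght5 stood at rank 5 from the top in wt and at rank 9 in Ofd2Δ. With median scaling of the arrays instead, the Ofd2Δ ratio was 1.80 and no longer reached 2-fold.

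For ght1, the deposited intensities ran from 1974 to 8526 with a median of 3460 in wt in normal oxygen and from 4458 to 13722 with a median of 5975 in wt in hypoxia. In Ofd2Δ they ran from 1241 to 6703 with a median of 2388 in normal oxygen and from 3514 to 9957 with a median of 5224 in hypoxia. The ranges overlap in both strains. The 7 probes differ in brightness, and after normalisation each of the 14 spots was brighter in hypoxia than the same spot in normal oxygen in both strains. On its own array ght1 moved from percentile 21.1 to 41.7 of all targets in wt, and from 16.5 to 63.4 in Ofd2Δ.

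The normalised level of ght1 in normal oxygen was 2676 for wt and 2102 for Ofd2Δ, and in hypoxia 5171 for wt and 8423 for Ofd2Δ. This order, Ofd2Δ lowest in normal oxygen and highest in hypoxia, held in each block. The hypoxia ratio was 1.93 in wt (1.89 and 1.98 in the 2 blocks), just short of 2-fold, and 4.01 in Ofd2Δ (3.83 and 4.19). In log2 units the ratio was 0.95 ± 0.27 in wt and 2.00 ± 0.38 in Ofd2Δ (SD over 14 spots). At least 2-fold was reached by 6 of the 14 spots in wt and by 14 in Ofd2Δ. The gene stood at rank 10 of 4997 in wt and at rank 3 in Ofd2Δ.

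The ght4 transcript was likewise higher in hypoxia in both strains. The median of its deposited intensities in normal oxygen was 3627 for wt and 3052 for Ofd2Δ, and in hypoxia 5506 and 4964. The ranges were 2269 to 6869 and 2236 to 6536 in normal oxygen, and 3177 to 9546 and 3204 to 9243 in hypoxia, and they overlap in both strains. On its own array ght4 moved from percentile 22.4 to 38.3 in wt and from 22.5 to 60.7 in Ofd2Δ. The normalised level in normal oxygen was 2824 for wt and 2943 for Ofd2Δ, where the blocks of the strains overlapped, and in hypoxia 4701 and 8217, where they did not. The hypoxia ratio was 1.67 in wt (1.63 and 1.70 in the 2 blocks) and 2.82 in Ofd2Δ (3.22 and 2.42). The SD of the log2 ratio over the 14 spots was 0.14 for wt and 0.36 for Ofd2Δ. In wt 14 of 14 spots rose and 0 of them by 2-fold, whereas in Ofd2Δ 14 rose and 13 by 2-fold. The gene stood at rank 18 of 4997 in wt and at rank 7 in Ofd2Δ.

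Unlike these 3 genes, ght8 did not rise in hypoxia. The median of its deposited spots was 21911 for wt and 21106 for Ofd2Δ in normal oxygen, and 19222 and 8642 in hypoxia. Spots ran from 18692 to 34979 and from 16907 to 42688 in normal oxygen, and from 14450 to 33049 and from 4368 to 13963 in hypoxia. Only the Ofd2Δ ranges do not overlap, and they are not corrected for the dimmer Ofd2Δ hypoxia array. After normalisation they do overlap, at 15018 to 36719 in normal oxygen and 6833 to 28519 in hypoxia. The percentile of the deposited medians among all targets was 86.9, 87.7, 85.9 and 85.5 in the same order, so that ght8 kept nearly the same place on every array. The normalised level was 18385 and 19384 in normal oxygen and 17011 and 13268 in hypoxia. The hypoxia ratio was 0.925 in wt (0.928 and 0.922 in the 2 blocks) and 0.707 in Ofd2Δ, where the blocks differed, with 0.529 in block 1 and 0.885 in block 2. Neither ratio passed 1.5-fold, but in Ofd2Δ it was 0.532 with median scaling and 0.533 with scaling on targets of middle level, both past a 1.5-fold fall. In Ofd2Δ 1 of the 14 spots was higher in hypoxia and in wt 4 were. Among 4997 targets the ratio of ght8 stood at rank 980 from the bottom in wt and at rank 187 from the bottom in Ofd2Δ. The hypoxia ratio of the deposited median spot of each induced gene was also divided by that of ght8 in the same strain, a quotient in which any linear scale of the arrays cancels. It was 2.58 in wt and 2.69 in Ofd2Δ for ght5, and for ght1 it was 1.97 and 5.34. For ght4 it was 1.73 and 3.97. From normal oxygen to hypoxia in Ofd2Δ, the 25th percentile of gene spots fell from 2920 to 2111 and the 75th from 13583 to 6894. The fall was thus larger in share among bright spots, and a scale of this kind does not cancel. In normal oxygen ght8 was brighter than the induced genes, so the Ofd2Δ quotients do not separate such a scale from a change of the genes. These values say how unequally the spots changed, and not which genes did.

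**Figure D2:**
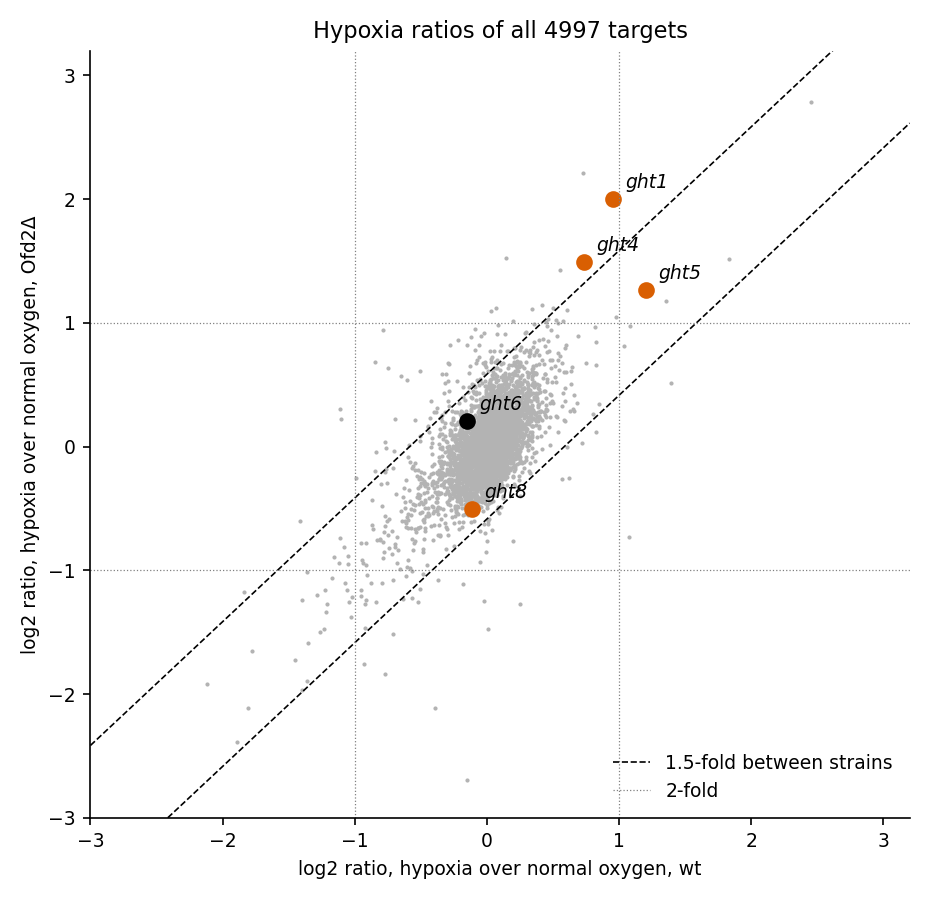
Log2 ratio of hypoxia over normal oxygen in wt (horizontal axis) and in Ofd2Δ (vertical axis) for all 4997 targets (grey), with the 4 hexose transporter genes (orange) and ght6 (black); dotted lines mark 2-fold and dashed lines a 1.5-fold difference between the strains. The points of ght1 and ght4 lie above the upper dashed line, with Ofd2Δ ratios 2.07 and 1.69 times the wt ratios, and those of ght5 and ght8 lie between the lines.

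The strains were compared by dividing the Ofd2Δ ratio by the wt ratio, with the study's limit of 1.5-fold. From the probe files, ght1 and ght4 were above this limit and ght5 and ght8 within it. The quotient was 2.07 for ght1, 1.69 for ght4, 1.04 for ght5 and 0.764 for ght8. Among all targets, 1.98% were above the limit on the side of Ofd2Δ and 0.720% on the side of wt, against 2 and 0 of the 4 genes. In log2 units and with the SD over 14 spots, the difference between the strains was 1.05 ± 0.38 for ght1, 0.76 ± 0.37 for ght4, 0.06 ± 0.47 for ght5 and -0.39 ± 0.39 for ght8. For both ght1 and ght4, 14 of 14 spots had the higher ratio in Ofd2Δ, and 9 of them by the limit. For ght5, 9 of 14 spots had it and 3 by the limit. In block 2 alone the quotient of ght4 was 1.43, within the limit, and in block 1 alone that of ght8 was 0.570, beyond it. The paper places every gene it called induced in hypoxia within its limit. It concludes that both strains induced such genes to a relatively similar degree. That conclusion rests on the study's own normalised values, which equal the deposited value table in all 1694 targets compared. The paper also reports no strain difference for the induced genes erg3 and hem13 by quantitative PCR. From the probe files the quotients of ght1 and ght4 lie outside the limit, but these are not the values the paper judged. In the deposited value table all 4 genes lay within the limit. There ght4 reached 2-fold in neither strain, so it was not a gene called induced.

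The levels of the strains were also compared directly. Ofd2Δ over wt, ght1 stood at 0.786 in normal oxygen, with 2 of 14 spots higher in Ofd2Δ, and at 1.63 in hypoxia, with 14 higher. For ght4 the strain ratio was 1.05 and 1.75, with 7 and 14 spots higher in Ofd2Δ. For ght5 these values were 0.854 and 0.892, with 2 and 5 spots higher, and for ght8 1.06 and 0.798, with 8 and 3 spots higher. In hypoxia, 1.62% of all targets were at least 1.5-fold higher in Ofd2Δ and 0.720% at least 1.5-fold lower, and 2 of the 4 genes were higher and 0 lower. In normal oxygen 0 of the 4 genes passed 1.5-fold in either direction, as against 0.0800% of all targets that were higher and 0.220% that were lower. In the deposited value table the strain ratio of ght1 in hypoxia was 0.892, on the other side of 1, and that of ght4 was 1.07. For ght5 and ght8 it was 0.817 and 0.836, on the same side of 1 as from the probe files.

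The deposited table of normalised values did not show the difference between the strains. There ght1 stood at 2358 and 2288 in wt in normal oxygen (the 2 blocks), at 1903 and 1898 in Ofd2Δ in normal oxygen, at 4739 and 4564 in wt in hypoxia, and at 4203 and 4095 in Ofd2Δ in hypoxia. Its hypoxia ratio was 2.00 in wt and 2.18 in Ofd2Δ, a quotient of 1.09. For ght4 the ratios were 1.66 and 1.72, a quotient of 1.03, and for ght5 2.52 and 2.31, a quotient of 0.917. For ght8 they were 0.896 and 0.737, a quotient of 0.822. The 2-fold call of ght4 in Ofd2Δ and the 1.5-fold difference between strains for ght1 and ght4 are thus lost there, and ght1 in wt just reaches 2-fold. The wt ratios of all 4 genes differed from those of the probe files by less than the SD over spots. The gap lay on 1 array, Ofd2Δ in hypoxia, and in 2 of the genes. The level of ght1 from the probe files was 1.11 to 1.15 times its value in the table on the 3 other arrays and 2.03 times on that array. For ght4 the factor was 1.17 to 1.18 on the 3 other arrays and 1.92 on that array, whereas it was 1.21 for ght5 and 1.05 for ght8 there. How the table was made from this array is not stated beyond RMA, and the source of the gap was not tested.

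**Figure D3:**
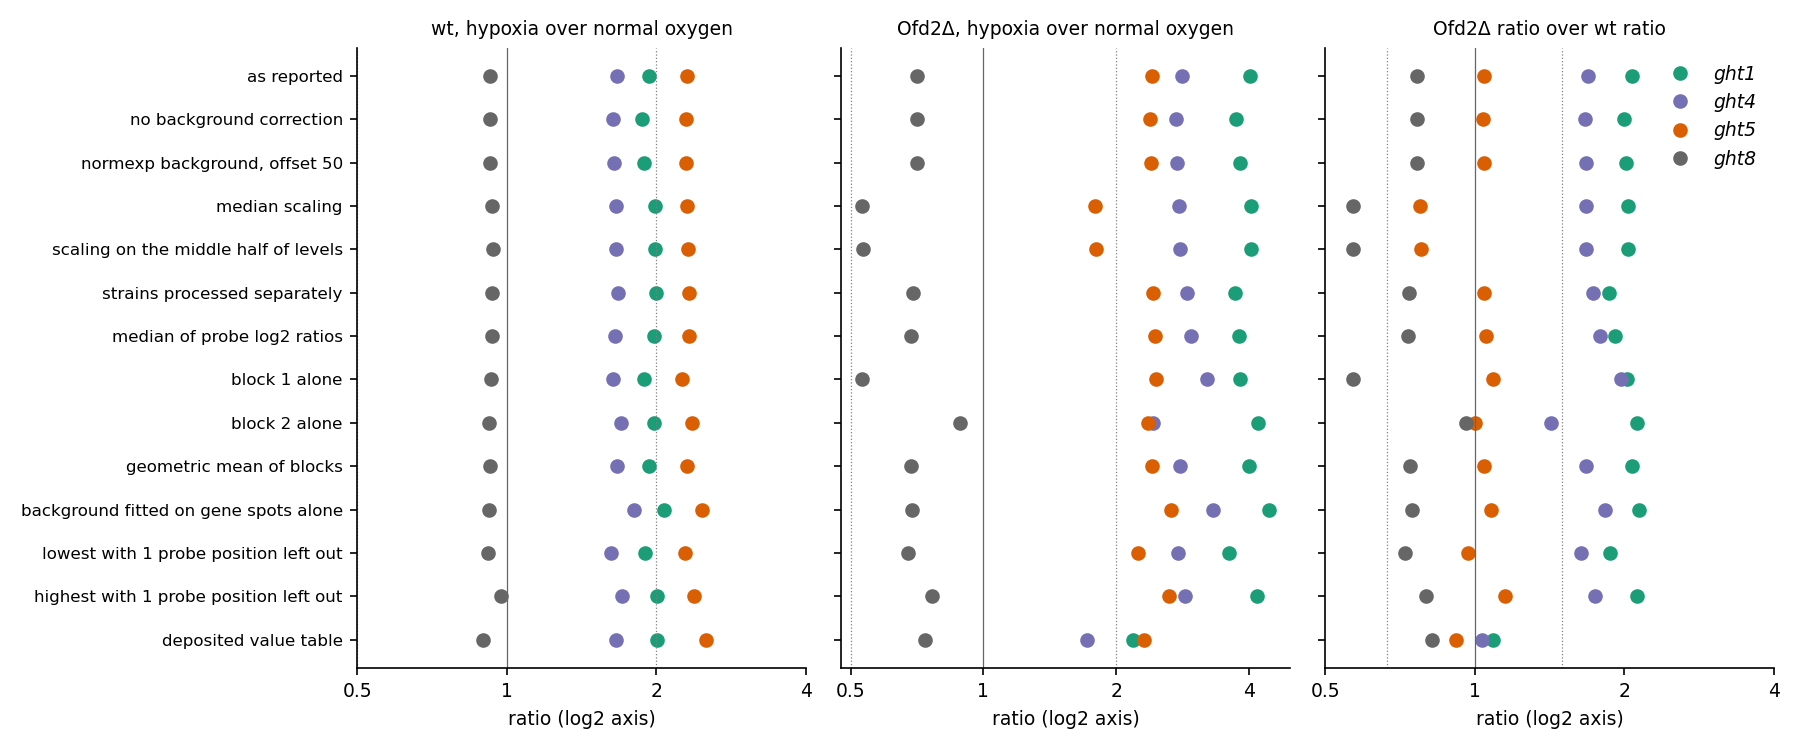
Hypoxia ratio in wt (left), in Ofd2Δ (middle) and Ofd2Δ ratio over wt ratio (right) of the 4 genes as reported and under each other way of processing, on log2 axes; dotted lines mark 2-fold (left and middle) and 1.5-fold (right). The wt ratios of ght1 stay between 1.87 and 2.08 over the rows, and ght1 and ght4 drop to 1.09 and 1.03 in the right panel for the deposited value table.

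The probes sample the 4 genes unequally. Each gene has 7 probes of 60 bases in each block. Those of ght1 start at bases 622 to 1529 of the target and do not overlap, and those of ght4 start at 214 to 1569, with 1 overlapping pair. The 7 probes of ght5 start within bases 1524 to 1572 and together cover a single stretch of 108 bases, so that they read 1 site of the target rather than 7. Of the probes of ght8, 1 starts at base 194 and the others at 1407 to 1583, with 4 overlapping pairs of neighbours. Genes of this family are alike in sequence, and hybridisation of a probe to another member was not tested, since probe sequences were not used here.

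**Figure D4:**
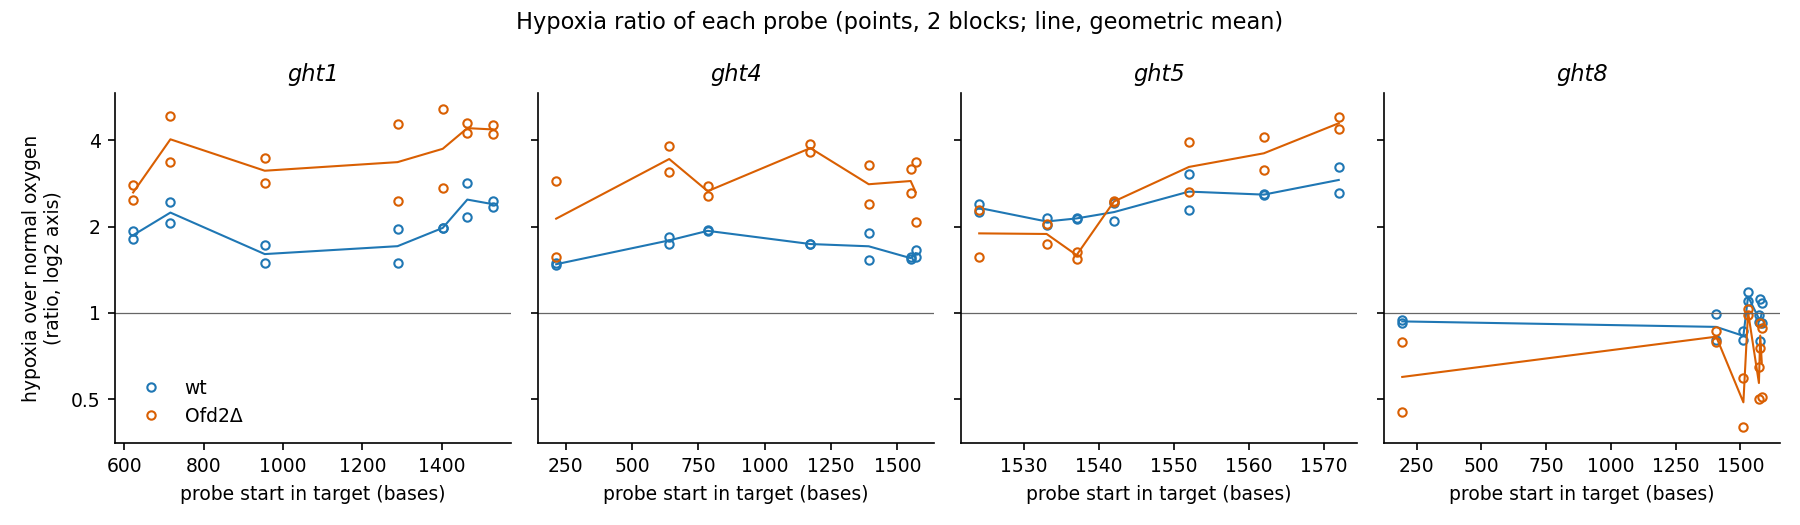
Ratio of hypoxia over normal oxygen at each probe (log2 axis) against the start of the probe in the target sequence, in bases, for wt (blue) and Ofd2Δ (orange); points are the 2 blocks and lines their geometric mean. For ght1 and ght4 the orange line lies above the blue line at all 7 positions, and for ght5 the lines cross, with Ofd2Δ ratios from 1.59 to 4.58.

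At each of the 7 positions of ght1 the ratio was higher in Ofd2Δ, with means over both blocks of 1.60 to 2.48 in wt and 2.63 to 4.41 in Ofd2Δ, and the same held for ght4, with 1.48 to 1.93 in wt and 2.13 to 3.76 in Ofd2Δ. The difference between the strains was smallest at base 622 for ght1, 1.41-fold, and at base 785 for ght4, 1.38-fold. The ratio of ght5 in wt lay between 2.08 and 2.91 along its stretch. In Ofd2Δ, by contrast, it was 1.59 at the probe that starts at base 1537 and 4.58 at the probe that starts at base 1572, although these probes share part of their sequence. Relative to wt, the 3 probes that start at 1524 to 1537 had quotients of 0.745 to 0.905 and the 4 that start at 1542 to 1572 had quotients of 1.09 to 1.58. The quotient of 1.04 for the gene is a summary over probes on both sides of 1. Leaving out each probe position in turn moved the Ofd2Δ ratio of ght5 between 2.24 and 2.63, that of ght1 between 3.60 and 4.17, and that of ght4 between 2.76 and 2.87.

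Of the 4 genes, ght5, ght8 and ght1 lie near each other on chromosome III, with ght6 beside ght5, and ght4 lies on chromosome II. The target that precedes ght5 in the study's table is ght6, and ght8 precedes ght1. The 2 adjacent pairs moved apart in hypoxia. The ratio of ght6 was 0.903 in wt and 1.16 in Ofd2Δ, beside 2.31 and 2.41 for ght5, and that of ght8 was 0.925 and 0.707, beside 1.93 and 4.01 for ght1. In Ofd2Δ the blocks of ght6 differed, at 1.33 and 0.983. Its lowest spot ratio, 0.179 at the probe that starts at base 491 in block 1, came from a single spot with a deposited intensity of 2837 in hypoxia, and the same probe in block 2 had 13754 and a ratio of 1.30, the highest of that block. From 3 targets before ght6 to 3 after ght1 there are 12 targets outside the family, and 0 of them rose 1.5-fold in wt, where 0.820% of all targets did. Their wt ratios ran from 0.828 to 1.40 with a median of 1.03. In Ofd2Δ they ran from 0.877 to 1.56 with a median of 1.06, and 1 rose 1.5-fold, gcd1 (SPCC794.01c) at 1.56, where 3.28% of all targets did. The 2 targets next to ght5 on the other side from ght6 belong to dga1, a diacylglycerol acyltransferase gene, with wt ratios of 0.983 and 0.942 and Ofd2Δ ratios of 1.20 and 1.10.

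**Figure D5:**
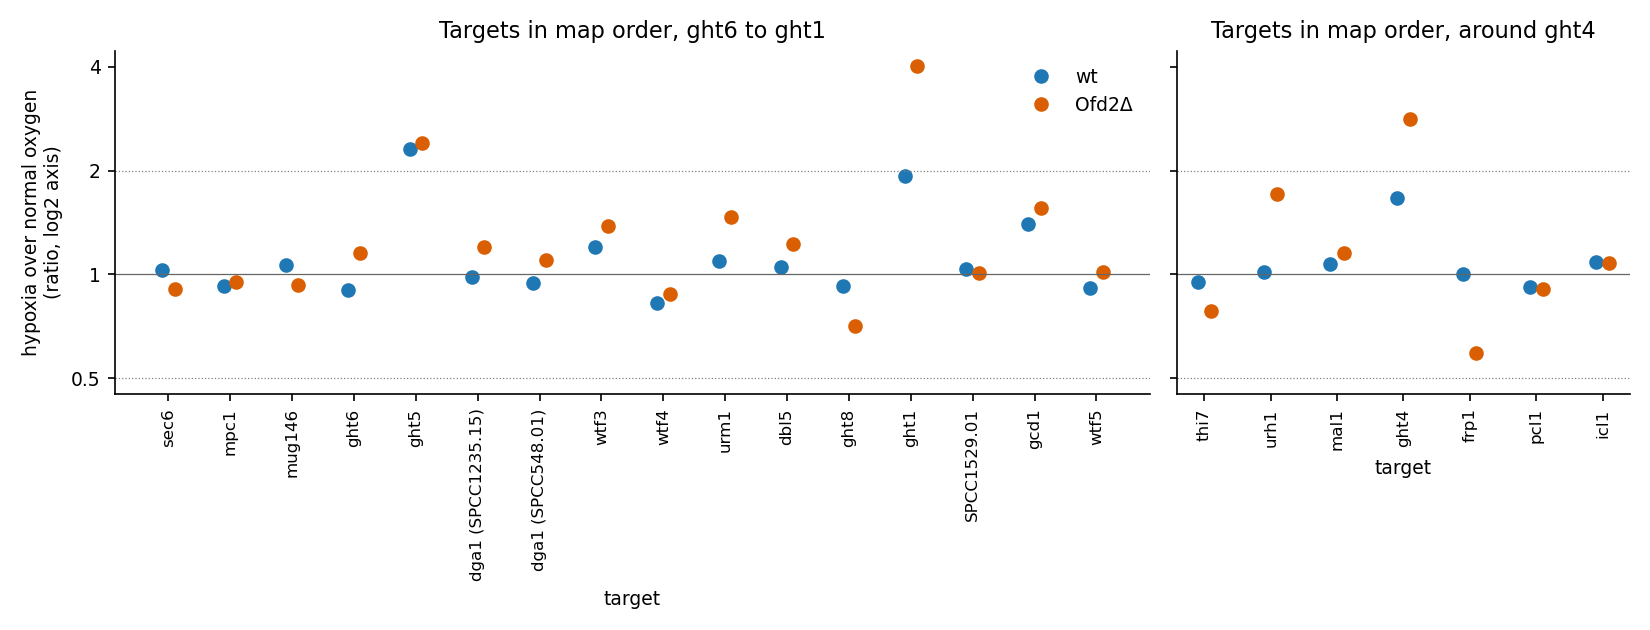
Ratio of hypoxia over normal oxygen (log2 axis) for the targets from 3 before ght6 to 3 after ght1 (left) and 3 on either side of ght4 (right), in the order of the study's gene table; blue is wt, orange Ofd2Δ, and dotted lines mark 2-fold. Only ght5 and, in Ofd2Δ, ght1 and ght4 lie above the upper line.

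Around ght4, the 6 neighbouring targets had wt ratios of 0.919 to 1.09. The target before it is mal1, an alpha-glucosidase gene that releases glucose from maltose, with ratios of 1.07 in wt and 1.16 in Ofd2Δ. In Ofd2Δ 1 of the 6 was at least 1.5-fold higher, where 3.28% of all targets were, and 1 at least 1.5-fold lower, where 2.88% were. They were urh1, a uridine ribohydrolase gene, at 1.71 against 1.02 in wt, and frp1, a ferric-chelate reductase gene, at 0.591 against 1.00. The quotient of the strains for urh1, 1.68, was close to the 1.69 of ght4. In the deposited value table urh1 had ratios of 1.03 and 1.39 and frp1 of 0.978 and 0.926.

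Likeness to each gene was measured as the root mean square distance between log2 levels over the 4 arrays, each centred on its own mean, among the 1241 named targets at or above the 25th percentile of level. The nearest to ght1 was ght4, at 0.24, and the nearest to ght4 was ght1. Next to ght1 came erg31, a sterol C-5 desaturase gene, at 0.33, and then ght5 at 0.33. The nearest to ght5 were imt2, an inositol phosphorylceramide mannosyltransferase gene, at 0.12 with hypoxia ratios of 1.97 in wt and 2.07 in Ofd2Δ, and erg31 at 0.14 with 2.55 and 2.26. The squalene epoxidase gene erg1 and hem13, a heme synthesis gene, followed at 0.27 and 0.28. For ght4, SPCC584.16c and isp4, an oligopeptide transporter gene, came after ght1, both at 0.27. The hypoxia ratios of SPCC584.16c were 1.05 in wt and 2.17 in Ofd2Δ from the probe files, but 1.04 and 0.911 in the deposited value table, where ght4 had 1.66 and 1.72. The distance between ght5 and ght4 was 0.36, and between ght8 and the 3 induced genes it was 0.79 to 0.99. The 5 targets nearest to ght8 lay within 0.038 of it, with wt ratios of 0.860 to 0.960. These distances rest on 4 arrays and describe the arrays, the Ofd2Δ hypoxia array included.

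A list of 19 further genes of sugar uptake, sugar hydrolysis, hexose phosphorylation, gluconeogenesis, glucose sensing and glucose repression was compiled, of which 7 carry a name on the array. Of the 7, 0 changed by 2-fold in either strain, where 0.160% of all targets rose and 0.640% fell in wt, and 0.440% rose and 1.00% fell in Ofd2Δ. With shares this small, 0 of 7 says little about the list. The median of their ratios was 1.00 for wt and 1.02 for Ofd2Δ, beside 1.02 for all targets in both strains. The ratios ran from 0.903 to 1.27 in wt and from 0.819 to 1.52 in Ofd2Δ. The highest in both strains was git3, the receptor that signals external glucose, at 1.27 in wt and 1.52 in Ofd2Δ, and it was the 1 gene of the 7 to reach 1.5-fold, where 3.28% of all targets did in Ofd2Δ. In the deposited value table its Ofd2Δ ratio was 1.34, short of 1.5-fold. The genes fbp1, for the gluconeogenic fructose-1,6-bisphosphatase, and inv1, for invertase, are known targets of glucose repression. Their ratios were 0.909 in wt and 1.15 in Ofd2Δ for fbp1, and 1.06 and 1.02 for inv1. The kinase genes ssp2, which encodes the catalytic subunit of AMPK, and ssp1, which encodes a kinase that activates it, had ratios of 1.00 and 0.914, and of 1.01 and 0.819. For pka1, the catalytic subunit of protein kinase A, they were 0.935 and 0.949. From the probe files, the ratios of the strains differed by 1.5-fold for 0 of the 7 genes. Among all targets, 1.98% did so on the side of Ofd2Δ and 0.720% on the side of wt. In the deposited value table fbp1, a dim target at percentile 12.9 of level, had ratios of 0.879 in wt and 1.38 in Ofd2Δ. These differ by more than 1.5-fold, and the other genes of the 7 stayed within the limit there. The repressor gene scr1 was among the 12 genes of the list that carry no name here.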

How the data were processed

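Transcript levels were measured on 4 single-channel (Cy3) NimbleGen arrays, 1 for each group. The authors deposited the uncorrected intensity of each spot, as NimbleScan 2.4.31 extracted it. They also deposited gene values after normalisation, in whole numbers of linear intensity, with 2 blocks a target. RMA is named for it in the submitters' processing notes, without a version, and the way its arrays were scaled is not stated. Its column medians were 5447 for wt and 5379 for Ofd2Δ in normal oxygen, and 5440 and 5726 in hypoxia.

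Each array held 69954 gene spots and 2083 control spots. The RMA background was fitted on all spots, gene spots were quantile-normalised over the 4 arrays, and the probes of each target and block were summarised by median polish on the log2 scale. The mean of both block ratios was used, as in the study. No test was made with 1 array per group, and the number of arrays limits the precision. The chain was tested on simulated data. The simulated arrays were built from the wt array in normal oxygen, each scaled by a constant factor. The simulation thus did not test the chain on the uneven brightness of the Ofd2Δ hypoxia array. limma 3.58.1 in R 4.3.3 gave the alternative background (normexp), and the rest was done with numpy 2.4.6, scipy 1.17.1, pandas 2.3.3 and matplotlib 3.10.9 in Python 3.11.15.

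Names came from the parts of the study's gene tables held here (1645 of 4997 targets). Symbols came from the RefSeq table of assembly ASM294v3, used for names and chromosomes only. Ratio columns of the study's tables were not used. In the value table, targets were identified by equality of all 8 values with the study's table, which held for 1694 of 1694. The genes named are the 4 genes, ght6, neighbours in the order of the study's target table, a list of glucose genes, and the 5 named targets of most similar profile to each. Members and lists were chosen with earlier results of these data known. No sequences were used here. The planned motif search in promoters was not run.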

Additional observations from a re-analysis of the deposited data

Results flagged for a closer look

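The target next to ght4, frp1, was singled out because its hypoxia ratio lay on different sides of 1 in the strains, at 1.00 in wt and 0.591 in Ofd2Δ, a quotient of 0.589. The wt ratio shows no change, so no opposite movement is shown, and the difference was not tested. In the deposited value table both ratios lay below 1, at 0.978 and 0.926.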

How the results depend on the processing

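Each ratio of the 4 genes was recomputed under 13 other settings, and all but 7 of the values moved by less than the SD over the 14 spots. In wt, ght1 ranged from 1.87 to 2.08, which crosses 2-fold, ght4 from 1.62 to 1.81, ght5 from 2.26 to 2.52 and ght8 from 0.896 to 0.971. The deposited value table lowered the Ofd2Δ ratio of ght1 to 2.18 and of ght4 to 1.72, and the strain quotients to 1.09 and 1.03. The quotient of ght8 was 0.568 with median scaling, 0.570 when scaled on targets between the 25th and 75th percentile of level and 0.570 in block 1. The cause of these shifts was not tested.

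Over all targets, 8 were at least 2-fold higher in wt, but 4 without background correction, 5 each with normexp, median scaling and middle-level scaling, 3 without targets under the 25th percentile of level (fewer targets), and 25 in the value table. In Ofd2Δ 22 were higher, but 14 without background correction, 122 with each of the 2 scalings and 9 without dim targets. Counts of lower targets were 32 in wt and 50 in Ofd2Δ, and 11 and 21 without dim targets. Fitting the background on gene spots alone was chosen after seeing the data. No paired analysis was possible because each group held 1 array. The median spot of the 4 genes was 19.6 to 291 times the control median on each array.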
